A study of Mus musculus with 3 samples.

Results

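Lymphatic endothelial cells line the vessels that drain fluid and carry immune cells out of a tissue, and 136 such cells were found among 42779 cells of the adventitia of the mouse aorta, the layer that wraps the artery from outside. They were chosen by their own transcripts: at least 3 of the genes Prox1, Mmrn1, Reln, Flt4 and Ccl21a had to have 1 or more UMIs, that is, transcript molecules counted once each. The cell also had to have at least 500 UMIs, at least 300 genes and at most 10% mitochondrial UMIs. The fibroblast genes Col1a1, Col1a2, Dcn and Lum together had to stay under 1% of its UMIs, and the macrophage genes C1qa, C1qb and C1qc under 0.1%. The 5 lymphatic genes therefore define the cells, and their levels are given as a description and are not tested.

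Lymphatic identity is set and held by the transcription factor PROX1, and growth of these vessels depends on the ligand VEGF-C acting on its receptor VEGFR-3, the product of Flt4. The blind-ended initial vessels have loose junctions, carry the hyaluronan receptor LYVE1 and release the chemokine CCL21, which draws dendritic cells that bear the receptor CCR7. Downstream collecting vessels have tight junctions and valves, and they carry less LYVE1 and CCL21. In arteries, lymphatic vessels run in the adventitia beside the small blood vessels that feed the wall.

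The study had 3 groups of 3 mice, 9 in all. Vehicle mice received saline, AngII mice received angiotensin II, the peptide hormone that constricts arteries, and AngII_VWR mice received the same hormone and could also run on a wheel at will. The adventitia was peeled from the aorta between its thoracic and abdominal ends and digested with Liberase and elastase, red blood cells were lysed, and droplet-based 3′ libraries were made. The labels give no strain, sex, age, dose or duration, and do not say how the mice of a group were pooled. Each group is 1 library, so no difference between groups can be tested, and every interval below covers counting error alone.

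Values below are given in the order Vehicle, AngII, AngII_VWR. Library totals were 165977330, 141570158 and 105679209 UMIs over 15093, 10515 and 19633 barcodes, and 13861, 9899 and 19019 cells passed the filters, with medians of 10174, 13460 and 4638 UMIs. The libraries shared 39 to 72 barcode sequences in pairs. Haemoglobin transcripts made up 2.68, 0.472 and 0.139% of UMIs. The version of the counting software also differed between AngII_VWR and the other libraries, so it cannot be told apart from the group.

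The rule found 59 lymphatic cells in Vehicle, 36 in AngII and 41 in AngII_VWR. That was 0.426% of the filtered cells in Vehicle (95% exact Clopper-Pearson interval 0.324 to 0.549%), 0.364% in AngII (0.255 to 0.503%) and 0.216% in AngII_VWR (0.155 to 0.292%). The share in AngII was 0.854 times that in Vehicle (exact interval of the ratio 0.548 to 1.31), which includes 1. The share in AngII_VWR was 0.593 times that in AngII (0.370 to 0.955) and 0.506 times that in Vehicle (0.331 to 0.767).

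The direction of the running comparison depended on what the cells were counted against. Blood endothelial cells, found by the same limits with at least 3 of Cdh5, Flt1, Emcn, Vwf and Plvap and fewer than 2 of the lymphatic genes, numbered 22, 94 and 33. Lymphatic cells made up 72.8% of all endothelial cells in Vehicle, 27.7% in AngII and 55.4% in AngII_VWR, so AngII had the lowest share. On that count AngII_VWR was 2.00 times AngII (1.25 to 3.22), opposite to the comparison over all cells, and AngII was 0.380 times Vehicle (0.244 to 0.585). Among cells outside the fibroblast limit the shares were 0.944, 1.14 and 0.739%, and AngII_VWR was 0.646 times AngII, with an interval that included 1 (0.403 to 1.04). The interval also included 1 with cells of at least 1000 genes and 2000 UMIs (0.386 to 1.03) and with doublets removed (0.399 to 1.06). After every cell was thinned to 2000 UMIs, which equalises depth, the shares were 0.375, 0.350 and 0.203%, against 0.451, 0.383 and 0.242% unthinned in the same cells of at least 2000 UMIs.

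Lymphatic cells of AngII_VWR were shallower than those of Vehicle. Their median was 11904, 7559 and 5080 UMIs, and single cells ranged from 782 to 156641, from 1752 to 60362 and from 1597 to 53331. The summed UMIs came to 1178032, 540993 and 386967, of which the deepest cell alone gave 13.3, 11.2 and 13.8%. Most cells sat well inside the rule: 38, 32 and 30 had all 5 genes, 8, 3 and 10 had 4, and 13, 1 and 1 had exactly 3. Just outside it, 3 cells in each library met every limit with 2 of the genes. The highest fibroblast share inside the limit was 0.965, 0.171 and 0.904%. The lowest outside it in a cell with at least 3 of the genes was 1.19, 1.53 and 1.07%.

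The rule fixed that these cells hold transcripts of the 5 rule genes, so their levels describe the cells and are no check of the label. Prox1 (ENSMUSG00000010175, chr1:190118035-190170714), which encodes the master regulator, had UMIs in 52 of 59, 34 of 36 and 35 of 41 cells, and its level in the summed UMIs was 436, 534 and 550 CPM (UMIs per 1000000 UMIs of the class). In all other cells of the same libraries Prox1 stood at 1.32, 1.29 and 1.86 CPM. Mmrn1, which encodes the matrix glycoprotein multimerin 1, stood at 1877, 3068 and 3367 CPM with UMIs in 58, 35 and 41 cells. Flt4 stood at 629, 1105 and 892 CPM with UMIs in 57, 35 and 40 cells. Reln, which encodes the secreted glycoprotein reelin, stood at 729, 1643 and 1259 CPM. All 4 genes were lowest in Vehicle.

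Ccl21a was the most abundant of the 5, at 8241, 20233 and 8853 CPM, with AngII the highest. It had UMIs in 46, 36 and 39 cells. In AngII, 1 cell gave 2822 of the 10946 Ccl21a UMIs. The median cell stood at 7573, 11459 and 10833 CPM, so by the median cell AngII and AngII_VWR were close and Vehicle was lower. Free RNA can put a UMI of such a gene in any droplet: 1.59, 2.07 and 1.55% of cells past the fibroblast limit had a Ccl21a UMI, at median depths of 10724, 13419 and 4923 UMIs. Ccl21a (ENSMUSG00000094686, chr4:42772860-42773993) has near-identical copies in the genome, and 2 rows with its symbol were summed, so its level is that of the reads the authors' counting gave to that name.

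The label was checked against markers outside the rule. Lyve1 stood at 2487, 3558 and 5246 CPM with UMIs in 49, 35 and 41 cells, and in the median cell at 2909, 3286 and 4094 CPM. Blood endothelial cells had 4.04, 4.52 and 16.6 CPM of Lyve1. Pdpn, which encodes the membrane glycoprotein podoplanin, stood at 263, 453 and 305 CPM. Both genes mark initial lymphatic vessels, but neither is confined to lymphatic cells here. Cells past the macrophage limit had 1167 CPM of Lyve1 in Vehicle and 452 CPM in AngII, with UMIs in 83.3 and 60.7% of them. Podoplanin is also made by fibroblasts.

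**Figure D1:**
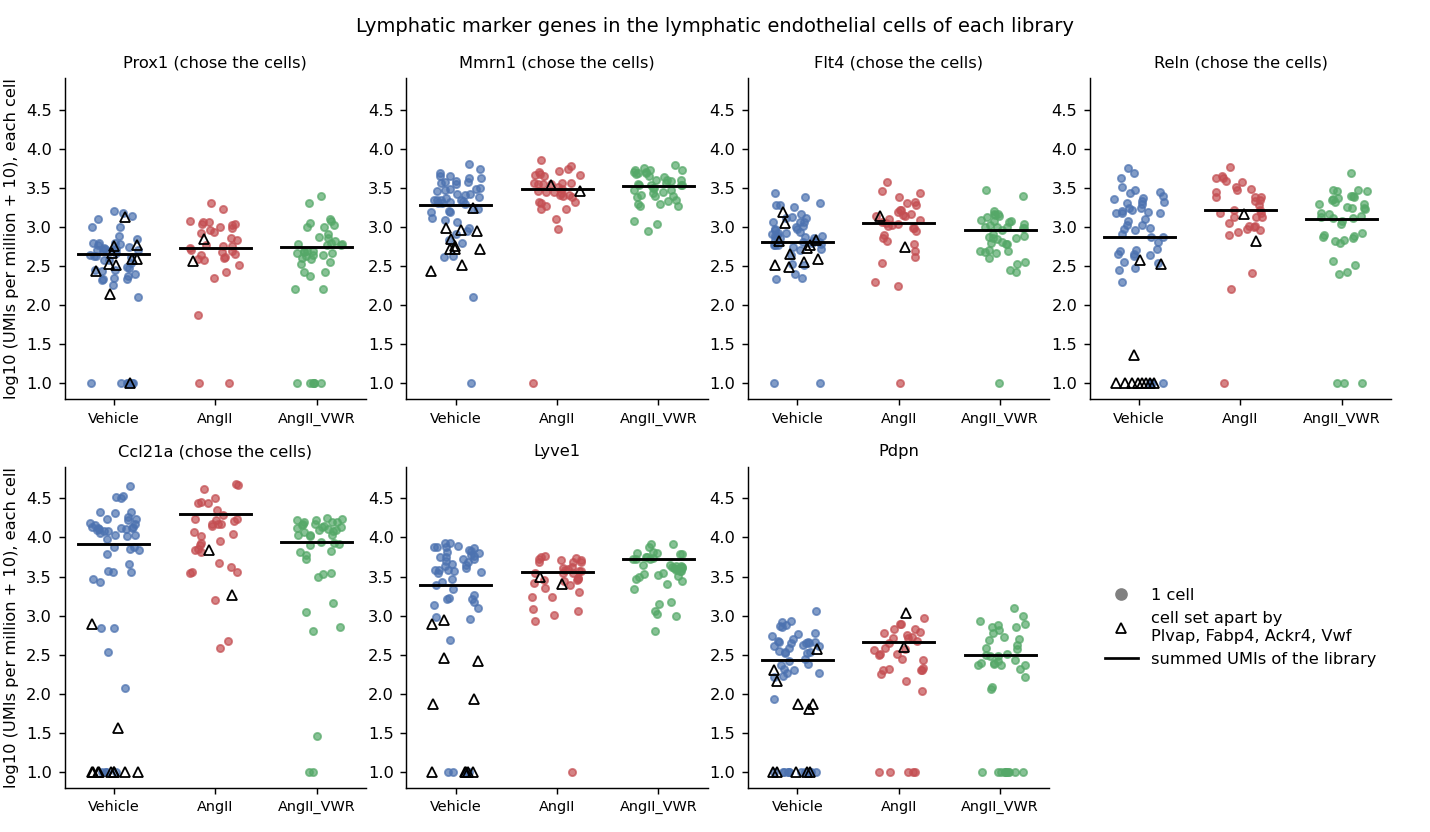
Each point is 1 lymphatic endothelial cell, placed by library on the x axis and by log10 of CPM plus 10 on the y axis, with 1 panel for each of 7 marker genes, black lines at the level of the summed UMIs and triangles for the cells set apart by Plvap, Fabp4, Ackr4 and Vwf. Ccl21a, Reln and Lyve1 are at 0 in many of the Vehicle triangles, Mmrn1 is lower in them, with a median cell at 562 against 2201 CPM, and Prox1 triangles lie among the points.

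Markers of other cells were low but not absent. Fibroblast markers summed to 2130, 876 and 2489 CPM (12 of 12 found in each library), and macrophage markers to 146, 190 and 413 CPM. Smooth muscle and pericyte markers summed to 121, 72.1 and 111 CPM, with Notch3 at 0 in all libraries and Acta2, Myh11 and Cnn1 at 0 in AngII. The 8 mesothelial markers were at 0 throughout, and 7 of 8 T and innate lymphoid markers were at 0 in each library. Haemoglobin genes, with the other erythroid markers, summed to 358, 40.7 and 23.3 CPM. Blood endothelial markers summed to 1497, 1007 and 817 CPM, with Sox17 and Aplnr at 0 in every library and Vwf at 0 in AngII and AngII_VWR. The part of these transcripts in the results below was not tested except where a value is given.

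The promoters of the 3 leading markers are shown because these genes helped to define the cells. The sequences are the 250 bases before the start site from RefSeq (GRCm38.p6), written 5′ to 3′ on the gene's strand. Short motifs of 3 families were searched on both strands: AACAAT (or ATTGTT), as SOX factors bind, AGGAAG (or CTTCCT), as ETS factors bind, and TAAACA (or TGTTTA), as FOX factors bind. Capitals mark a match.
Prox1, first start, chr1:190170828-190171077, minus strand: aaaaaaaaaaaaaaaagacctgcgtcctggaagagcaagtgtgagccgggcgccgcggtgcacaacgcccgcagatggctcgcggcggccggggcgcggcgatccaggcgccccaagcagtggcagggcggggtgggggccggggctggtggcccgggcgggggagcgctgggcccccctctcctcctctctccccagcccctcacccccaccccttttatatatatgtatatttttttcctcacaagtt
Prox1, second start, chr1:190169516-190169765, minus strand: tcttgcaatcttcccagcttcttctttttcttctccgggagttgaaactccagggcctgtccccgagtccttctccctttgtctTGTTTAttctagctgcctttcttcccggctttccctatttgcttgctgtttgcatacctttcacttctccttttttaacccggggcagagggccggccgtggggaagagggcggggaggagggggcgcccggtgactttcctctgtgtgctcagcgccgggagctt
Mmrn1, chr6:60944067-60944316, plus strand: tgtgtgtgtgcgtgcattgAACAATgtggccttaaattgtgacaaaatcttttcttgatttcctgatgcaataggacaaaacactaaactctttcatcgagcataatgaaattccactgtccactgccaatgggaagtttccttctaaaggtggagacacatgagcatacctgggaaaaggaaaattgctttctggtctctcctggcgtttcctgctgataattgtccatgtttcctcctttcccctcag
Flt4, chr11:49609429-49609678, plus strand: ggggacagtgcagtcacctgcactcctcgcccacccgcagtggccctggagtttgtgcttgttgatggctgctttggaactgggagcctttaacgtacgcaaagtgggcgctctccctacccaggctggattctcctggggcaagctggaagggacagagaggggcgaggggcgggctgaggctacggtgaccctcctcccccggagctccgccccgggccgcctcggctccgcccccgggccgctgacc

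The second Prox1 start held 1 FOX motif 166 bases before the start and Mmrn1 held 1 SOX motif 231 bases before it, while the first Prox1 start and Flt4 held none of the 3. The stretches of Mmrn1, Flt4 and the second Prox1 start lie inside the genes as GENCODE places them. GENCODE gives chr6:60924976-60989378 for Mmrn1, chr11:49609263-49652739 for Flt4 and chr1:190118035-190170714 for Prox1. These 3 stretches are thus downstream of the start that GENCODE gives. Over all 32851 RefSeq promoters, 9.42% held the SOX motif, 29.5% the ETS motif and 12.03% the FOX motif. Among promoters of genes higher in lymphatic than in blood endothelial cells, as tested below, the shares were 5.17, 28.1 and 9.50%, and among promoters of all genes tested 5.14, 27.7 and 7.36%. A match is a run of letters and not a binding site.

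Some Vehicle cells met the rule with little of the initial-vessel transcripts. The 4 genes Plvap, Fabp4, Ackr4 and Vwf summed to at least 1000 CPM in 11 Vehicle cells, 2 AngII cells and no AngII_VWR cell. This cut was chosen after the values had been seen, so the contrast is a description. The 2 AngII cells differed from the 11: they had 79 Fabp4 and 2 Plvap UMIs, none of Ackr4 or Vwf, and Lyve1 at 2623 CPM. The 11 cells gave 33.0% of the Vehicle lymphatic UMIs and included the deepest cell, and 1 of them was marked by Scrublet, a doublet caller. Sox17, Car4, Ccdc85a and Dach1 were high in blood endothelial cells and had no UMI in any lymphatic cell, these 11 included. The 4 genes were singled out for that absence, so it is no check of the 11 cells. Some other blood endothelial genes were higher in the 11 cells, as given below. Flt1, which encodes VEGFR-1, had UMIs in 6 of 11 against 2 of the other 48 Vehicle cells. Near the cut, with sums between 500 and 2000 CPM, lay 7 Vehicle, 1 AngII and 4 AngII_VWR cells.

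Prox1 stood at 463 CPM in the 11 and 423 CPM in the other 48 Vehicle cells, and Flt4 at 442 and 721 CPM. Mmrn1 was lower in them, at 825 against 2395 CPM. Ccl21a stood at 54.0 against 12277 CPM, Reln at 30.8 against 1073 CPM and Lyve1 at 175 against 3627 CPM. In the summed UMIs the 11 cells were thus near the others in Prox1 and far under them in these 3 transcripts. Of the 11, 2 had a Ccl21a UMI and 3 a Reln UMI. A cell with neither can pass the rule only with Prox1, Mmrn1 and Flt4. Its Prox1 UMIs therefore follow from the rule and are no check of the label. Piezo2, a mechanosensitive channel, stood at 10.3 against 447 CPM, Stmn2 at 23.1 against 458 CPM and Kcnn3, a calcium-activated potassium channel, at 5.14 against 137 CPM. Cyp4b1 and Apba2 had no UMI in the 11 cells and stood at 147 CPM each in the others, at least 19.1-fold lower against a floor of 3 counts.

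Transcripts higher in the 11 cells included the genes that chose them: Fabp4, a fatty acid carrier, at 2093 against 25.3 CPM, Plvap at 859 against 67.2 CPM, and Ackr4, a scavenging receptor for CCL21 and CCL19, at 470 CPM against no UMI. Of genes that did not choose them, Car8 stood at 414 against 10.1 CPM, Ptgs1, which encodes cyclooxygenase 1, at 326 against 7.60 CPM and Wnt2 at 270 against 17.7 CPM. Cyp26b1, which breaks down retinoic acid, stood at 144 CPM against no UMI (at least 37.9-fold higher). The valve transcription factors Gata2 and Foxc2 stood at 111 against 25.3 CPM and at 92.5 against 53.2 CPM. Other collecting vessel and valve genes differed in direction. Foxp2 stood at 584 against 176 CPM and Nfatc1 at 203 against 189 CPM. Itga9 stood at 321 against 395 CPM and Cldn11 at 23.1 against 49.4 CPM. The median log2 ratio of that list was 0.30.

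Among the lists, MHC class I genes, which present peptides to cytotoxic T cells, were at least 2-fold higher in the 11 cells for 8 of 11 members, with a median log2 ratio of 1.99. H2-K1 stood at 1553 against 241 CPM and B2m, the shared light chain, at 1468 against 346 CPM. Collecting vessel and valve genes were 2-fold higher for 3 of 14 and lower for 1. Initial-vessel (capillary lymphatic) genes were lower for 4 of 8 and higher for 2, with a median of −1.13. The 2 higher members were Aqp1 and Ackr4, and Ackr4 is 1 of the genes that chose the cells. Blood endothelial genes were higher for 9 of 14 and lower for 1, a list that holds 3 of the choosing genes. The other 6 included Nos3, endothelial nitric oxide synthase, at 224 against 71.0 CPM, Emcn at 1028 against 458 CPM and Efnb2 at 416 against 176 CPM, each with UMIs in all 11 cells. They also included Mecom, with UMIs in 1 of the 11, and Cd36. Without the deepest cell Cd36 went from 234 to 12.9 CPM, against 24.1 CPM in the other cells, while Nos3, Emcn and Efnb2 stood at 245, 831 and 478 CPM. Cd34 (136 against 112 CPM) and Ly6a (139 against 141 CPM) were near level, and Ly6c1 stood at 10.3 against 38.0 CPM. Heat shock genes were past 2-fold in neither direction in 14 members. Over all 4367 genes measured in this contrast, 261 were 2-fold higher and 309 lower, with a median of −0.01.

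**Figure D2:**
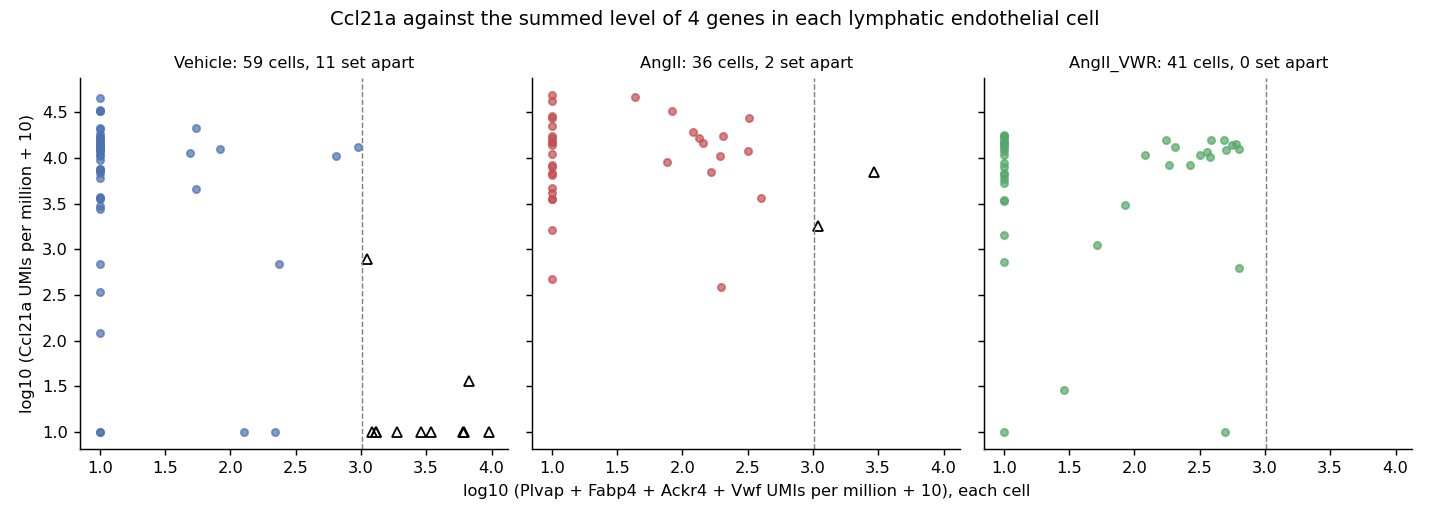
Each point is 1 lymphatic endothelial cell of the library named above the panel, with log10 of the summed CPM of Plvap, Fabp4, Ackr4 and Vwf plus 10 on the x axis, log10 of Ccl21a CPM plus 10 on the y axis, and a dashed line at 1000 CPM. Of the 11 Vehicle cells right of the line, 2 have a Ccl21a UMI, while both AngII cells right of it have Ccl21a.

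The comparison of lymphatic with blood endothelial cells shows what sets lymphatic cells apart from the closest other class. UMIs were summed per class and library, and the 6 sums were tested with edgeR's quasi-likelihood test with the library as a block. The threshold was a Benjamini-Hochberg adjusted p of 0.05 over all 6952 genes tested and at least a 2-fold difference. The 3 libraries serve as replicates of the class difference although their treatments differ. Of the genes tested, 462 (6.65%) were higher in lymphatic cells and 523 (7.52%) lower. Of these, 5 and 3 belonged to the rules that chose the classes, which left 457 and 520 of 6935. The blood class was not pure: smooth muscle markers summed to 4463, 840 and 3410 CPM in it and haemoglobin and other erythroid markers to 477, 7132 and 66.5 CPM, in Vehicle, AngII and AngII_VWR. Scrublet marked 9 of 22, 5 of 94 and 8 of 33 of its cells, and 10 of 59, 2 of 36 and 2 of 41 of the lymphatic cells.

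Lymphatic identity genes outside the rule were higher for 16 of 20 tested members and lower for none, with a median log2 fold change of 4.79 against 0.00 over all genes tested. Lyve1 (ENSMUSG00000030787, chr7:110850607-110863239) was higher by 8.94 ± 0.37 (log2, SE derived from the test statistic, n = 3 libraries, edgeR adjusted p = 6.85e-05). The transcription factor gene Maf stood at 796, 1183 and 2147 CPM in lymphatic cells and 8.09, 2.26 and 5.55 CPM in blood endothelial cells (8.04 ± 0.46, edgeR adjusted p = 0.000294). Nr2f2, which encodes COUP-TFII, a partner of PROX1, was higher by 3.10 ± 0.47 (edgeR adjusted p = 0.00433). Nts, the neurotensin precursor, stood at 2413, 1789 and 1757 CPM against 4.04, 29.4 and 0 CPM. Fgl2, a secreted fibrinogen-like protein, stood at 1559, 2233 and 2514 CPM against 20.2, 28.2 and 5.55 CPM. Every library showed these differences in the same direction.

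Genes with no UMI in any blood endothelial cell headed the ranking by fold. Pard6g, a cell polarity gene, stood at 488, 659.9 and 672 CPM and was at least 248-fold higher against a floor of 3 counts over the class. Dtx1, a ubiquitin ligase of the Notch pathway, stood at 264, 224 and 277 CPM (at least 112-fold). Sh3gl3 was at least 82.9-fold, Slc45a3 78.4-fold, Apba2 53.8-fold and Reep1 38.2-fold higher. Ackr2, a decoy receptor that clears inflammatory CC chemokines, stood at 102, 218 and 178 CPM and was at least 63.8-fold higher. Ptn, the growth factor pleiotrophin, stood at 1099, 678 and 1406 CPM against 8.09, 1.13 and 0 CPM, and Lcn2, an iron-binding acute-phase protein, at 402, 983 and 1029 CPM against 0, 3.39 and 0 CPM (8.43 ± 0.48, edgeR adjusted p = 0.000294).

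**Figure D3:**
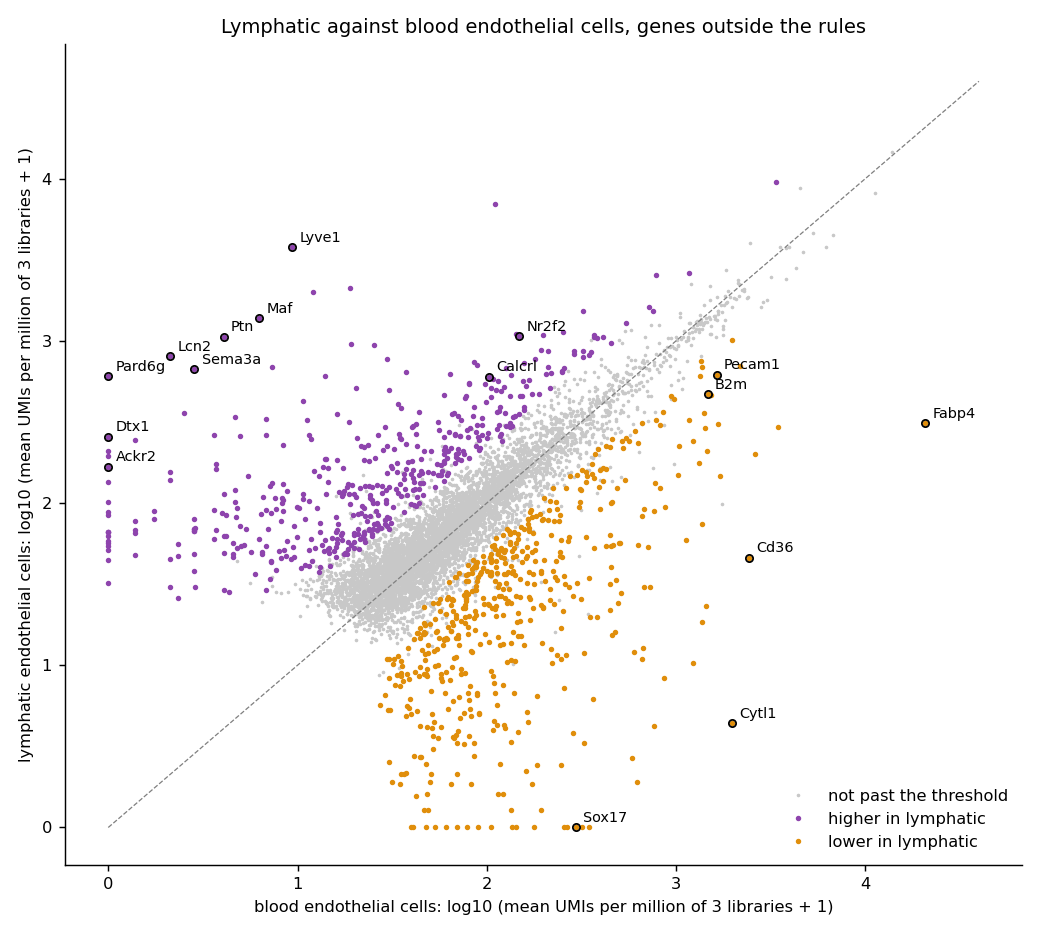
Each point is 1 tested gene outside the rules, with log10 of the mean CPM of the 3 libraries plus 1 in blood endothelial cells on the x axis and in lymphatic endothelial cells on the y axis; purple points are higher and orange points lower in lymphatic cells by the edgeR test. Lyve1, Maf and Lcn2 lie near the y axis and Sox17 and Cytl1 near the x axis.

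Blood endothelial genes were lower for 14 of 20 tested members and higher for none, with a median of −4.22. Sox17, a transcription factor of arteries, had no UMI in lymphatic cells and stood at 206, 439 and 238 CPM in blood endothelial cells (at least 258-fold lower). Car4, a carbonic anhydrase of capillaries, was at least 319-fold lower, Ccdc85a 304-fold, Dach1 280-fold, Mcf2l 152-fold, Gkn3 107-fold and Atp2a3 67.3-fold. Gkn3 was not called by DESeq2, the other count model tried. Cytl1 stood at 7.64, 0 and 2.58 CPM against 4888, 295 and 704 CPM and fell by 9.24 ± 0.42 on the log2 scale (edgeR adjusted p = 9.73e-05). The lipid carriers Fabp4 and Cd36 fell by 6.76 ± 1.47 and 5.72 ± 1.00 (edgeR adjusted p = 0.0202 and 0.00833). Both calls were lost without AngII_VWR and with doublets removed, and that of Fabp4 also without AngII.

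Of 20 tested genes shared by all endothelium, 1 was higher and 6 were lower, with a median of −0.84, against 7.52% lower over all genes tested. Cldn5, the tight junction claudin of endothelium, stood at 1190.1, 1299 and 1233 CPM against 958, 2321 and 1319.8 CPM and did not pass the test. Ramp2 (850, 878 and 1041 CPM) and Kdr, which encodes VEGFR-2 (437, 545 and 455 CPM), did not pass either. Pecam1 was lower by a log2 fold change of −1.32 (edgeR adjusted p = 0.0447), a call lost in 5 of the 10 alternatives, among them each of the fits without Vehicle and without AngII_VWR.

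The receptor that pairs with Ramp2 did separate the classes. Calcrl, the receptor subunit for adrenomedullin and CGRP, stood at 617, 608 and 574 CPM in lymphatic cells and 72.8, 94.8 and 139 CPM in blood endothelial cells, and was higher by 2.48 ± 0.28 (edgeR adjusted p = 0.00144). In AngII it was 0.985 times its level in Vehicle, and in AngII_VWR 0.943 times its level in AngII. Agtr1a, which encodes the main angiotensin II receptor, gave 2, 0 and 0 UMIs in all lymphatic cells, and Agtr1b and Agtr2 gave 0. With 3 counts as the floor, 0 of 540993 UMIs in AngII allows up to 5.55 CPM, so receptor transcript was not detectable at this depth. Over the vasoactive receptor list, 2 of 11 tested members were higher and 4 lower.

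The VEGF axis split by co-receptor. Nrp2, the co-receptor that binds VEGF-C, stood at 460, 632 and 615 CPM against 32.3, 253 and 211 CPM (1.91 ± 0.45, edgeR adjusted p = 0.0292). This call was lost without the block, without AngII_VWR and with doublets removed. Nrp1, which binds VEGF-A and class 3 semaphorins, stood at 11.9, 7.39 and 10.3 CPM against 530, 896 and 549 CPM and fell by 6.06 ± 0.37 (edgeR adjusted p = 0.000304). In all, 1 of 13 tested members of the VEGF list was higher and 2 lower. The ligand Vegfc stood at 2.55, 1.85 and 2.58 CPM in lymphatic cells, at 101, 38.4 and 66.5 CPM in blood endothelial cells and at 31.1, 29.8 and 39.3 CPM in cells past the fibroblast limit. Vegfd, the other ligand of VEGFR-3, stood at 23.8, 5.55 and 12.9 CPM in lymphatic cells and 174, 203 and 198 CPM in cells past the fibroblast limit, and Ccbe1, which helps process VEGF-C, at 105, 187 and 204 CPM in the latter.

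Genes that act on leukocyte traffic went both ways, with 4 of 12 tested higher and 5 lower. Il7, the lymphocyte survival cytokine, stood at 142, 174 and 98.2 CPM against 0, 3.39 and 0 CPM (5.92 ± 0.50, edgeR adjusted p = 0.000534). Spns2, the exporter of sphingosine-1-phosphate into lymph, was higher by 2.23 ± 0.40 (edgeR adjusted p = 0.00931), and Ackr3, a scavenger of CXCL12 and adrenomedullin, by 2.01 ± 0.26 (edgeR adjusted p = 0.00253). Cxcl12 stood at 14.4, 24.03 and 80.1 CPM against 243, 735 and 377 CPM. Adhesion molecules were higher for 2 of 17 and lower for 5: Vcam1 fell by 4.25 ± 0.36 and Jam2 by 6.65 ± 0.51 (edgeR adjusted p = 0.00054 and 0.000454). Ccl19, the other ligand of CCR7, stood at 2.55, 7.39 and 15.5 CPM in lymphatic cells and at 117, 221 and 90.5 CPM in cells past the fibroblast limit.

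Guidance, matrix and TGF-beta family genes differed between the classes in both directions. Sema3a, which repels nerves and other cells, stood at 443, 941 and 615 CPM against 0, 0 and 5.55 CPM (9.45 ± 0.69, edgeR adjusted p = 0.000394). Sema3d stood at 663, 593 and 556 CPM against 20.2, 2.26 and 16.6 CPM. Of 21 guidance genes tested 5 were higher and 5 lower. Lama4, a laminin chain, was higher by 2.37 ± 0.28 (edgeR adjusted p = 0.00175), and of 20 basement membrane genes 4 were higher and 4 lower. Tgfb2 was higher by 4.12 ± 0.42, while Id1, a target of BMP signals, fell by 2.99 ± 0.27 (edgeR adjusted p = 0.000981 and 0.000627), in a list with 3 of 18 higher and 7 lower.

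MHC class I genes were lower in lymphatic than in blood endothelial cells for 8 of 10 tested members and higher for none, with a median of −1.89. H2-K1 stood at 674, 325 and 388 CPM against 1524, 1512 and 1564 CPM (−1.92 ± 0.27, edgeR adjusted p = 0.00343) and B2m was lower by a log2 fold change of −1.87 ± 0.30 (edgeR adjusted p = 0.0056). Both calls were lost without AngII_VWR. MHC class II genes were lower for 3 of 4. Early response genes were lower for 7 of 22, Notch pathway genes for 5 of 12 and fatty acid handling genes for 7 of 17, with none higher in any of these lists. Unfolded protein response genes passed the test in neither direction (0 of 15).

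By the ratio of their level to that in all other cells, taken as the smallest of the 3 libraries, the genes outside the rule most like the rule genes included Duox2, Gpm6a, Nts, Sh3gl3, Duoxa2, Adgrg3, Gpr182, Klhl4 and D5Ertd615e. Their smallest ratios ran from 973 for Duox2 to 397 for D5Ertd615e, against 296 to 1391 in the 5 rule genes. Duox2, a hydrogen peroxide-producing oxidase, stood at 94.2, 81.3 and 74.9 CPM and its maturation factor Duoxa2 at 39.9, 35.1 and 12.9 CPM. Gpr182, a scavenging chemokine receptor, stood at 95.1, 118 and 137 CPM. This ranking is a description of the 3 libraries, without a test.

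AngII against Vehicle asks how the lymphatic cells differ under the hormone. In the summed UMIs heat shock genes were lower in AngII, and Rcan1, Lcn2 and the rule gene Ccl21a were higher. The log2 ratio of the MHC class I gene H2-K1 went from −1.03 to 0.43 when the set-apart cells were left out, and that of B2m from −1.28 to −0.21. Of 4340 genes with at least 10 UMIs over both libraries and at least 50 CPM in either, 119 (2.74%) were 2-fold or more higher and 130 (3.00%) were lower by as much. The median log2 ratio of CPM + 10 was 0.03. With 1 library per group none of these has a test, and the second comparison below shares the AngII library.

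Rcan1 (ENSMUSG00000022951, chr16:92391953-92470867), which encodes a calcineurin inhibitor that calcineurin signalling induces, stood at 150.3, 539.7 and 214 CPM. It was 3.59-fold higher in AngII than in Vehicle (exact interval 2.97 to 4.35). In all other cells Rcan1 stood at 131 and 139 CPM. As a mean over cells, which weights shallow and deep cells alike, its log2 ratio was 0.83 against 1.78 in the summed UMIs. Lcn2 stood at 402, 983 and 1029 CPM, 2.44-fold higher in AngII (2.16 to 2.77), with UMIs in 42 of 59, 30 of 36 and 40 of 41 cells. It stayed high in AngII_VWR. Its log2 ratio of 1.27 was 0.91 without the set-apart cells, 0.87 as a mean over cells and 0.74 after thinning.

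Efna5, an ephrin ligand, stood at 67.9, 251 and 114 CPM (3.70-fold, 2.79 to 4.94), and Kcnn3 at 93.4, 319.8 and 134 CPM (3.42-fold). Both were nearer to 2-fold without the set-apart cells, with log2 ratios of 1.07 and 1.18. Pgf, placental growth factor, stood at 51.8, 159 and 116 CPM (3.07-fold), Slc39a14, a zinc and iron importer, at 41.6, 126 and 160.2 CPM (3.02-fold) and Trps1, a GATA-type repressor, at 129.9, 396 and 289 CPM (3.05-fold). Col23a1 was 3.24-fold and Emid1 2.95-fold higher, but as a mean over cells their log2 ratios went from 1.56 to 0.70 and from 1.43 to 0.99. Without the set-apart cells Col23a1 had 1.18 and Emid1 1.09. The log2 ratio of Pgf then went from 1.45 to 1.08 and that of Trps1 from 1.54 to 1.19, while that of Slc39a14 went from 1.40 to 1.62. After thinning every cell to 2000 UMIs, the ratio of Kcnn3 went from 1.67 to 0.77 and that of Slc39a14 from 1.40 to 0.72. AngII was the highest library for Rcan1, Efna5, Kcnn3, Pgf, Trps1, Col23a1 and Emid1, and AngII_VWR lay between the others for each of them.

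Reln and Ccl21a are rule genes, so their levels are a description. In the summed UMIs Reln was 2.25-fold higher in AngII and Ccl21a 2.46-fold (2.39 to 2.52). Their log2 ratios were 1.16 and 1.29, and 0.65 and 0.78 without the set-apart cells. The 11 Vehicle cells held little of either, while the 2 AngII cells had 800 CPM of Reln and 6014 CPM of Ccl21a. Both ratios were also under 1 as means over cells. That of Ccl21a was under 1 after thinning and without each library's deepest cell as well. Ackr2 stood at 102, 218 and 178 CPM and Sema3a at 443, 941 and 615 CPM, both past 2-fold. Without the set-apart cells both fell short of it, with log2 ratios of 0.68 for Ackr2 and 0.87 for Sema3a. Ackr2 had 0.37 as a mean over cells, Sema3a 0.57 after thinning, and without the AngII cell that held 27.7% of its UMIs Sema3a had 0.67. Lymphatic identity genes were 2-fold higher for 2 of 21 measured members and lower for 1 (Ackr4), with a median of 0.36, or 0.10 without the set-apart cells. Initial-vessel genes had a median of 0.73 over 7 members, or 0.39 without them.

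Heat shock genes, cytosolic chaperones that also respond to tissue digestion, were at least 2-fold lower in AngII for 7 of 14 measured members and higher for none, with a median of −0.92. Hspa1a stood at 847, 161 and 295 CPM, 5.27-fold lower in AngII (4.23 to 6.64). Hspa1b stood at 705, 166 and 341 CPM (4.24-fold lower), Hspb1 at 581, 185 and 158 CPM (3.14-fold) and Hsph1 at 377, 135 and 233 CPM (2.79-fold). Hspa1a and Hspa1b are near-identical copies, so the split of reads between them is uncertain. In AngII 1 cell held 56 of the 87 Hspa1a UMIs, and without each library's top cell the log2 ratio of Hspa1a went from −2.33 to −3.57. Without the set-apart cells the median was −0.92 as well, and as a mean over cells −0.94. The same genes had a median of −0.62 in all other cells, −0.88 in cells past the macrophage limit and 0.17 in blood endothelial cells, so the difference was not confined to lymphatic cells.

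Sulf1, a heparan sulfate editing enzyme, stood at 198, 20.3 and 12.9 CPM, 9.73-fold lower in AngII (5.34 to 19.8). Its UMIs came mainly from the set-apart cells, at 488 against 54.5 CPM, and its log2 ratio went from −2.78 to −1.22 without them. Il33, an alarmin, stood at 174, 49.9 and 72.4 CPM (log2 −1.62, and −0.55 without those cells). Adamts9 had −1.69 and −0.83, and Insr, the insulin receptor, −1.79 and −0.76.

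MHC class I genes were at least 2-fold lower in AngII for 4 of 10 measured members, with a median of −0.70, and this too rested on the set-apart cells. Without them the median was 0.24. H2-K1 had a log2 ratio of −1.03, which turned to 0.43, and B2m went from −1.28 to −0.21. In all other cells the same genes had a median of 0.43. Blood endothelial genes were lower for 5 of 14 and higher for 2, with a median of −0.36, or 0.08 without those cells. Since 3 of the 5 are genes that chose the set-apart cells, this second value follows from the choice.

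The remaining lists are read against the 2.74% of all measured genes that were higher and the 3.00% that were lower. Basement membrane genes had 1 of 17 higher and 1 lower, with a median of 0.37: Emilin1, an anchoring glycoprotein, stood at 65.4, 161 and 103 CPM and Sparc at 332, 96.1 and 173 CPM. The log2 ratio of Emilin1 went from 1.18 to 0.68 as a mean over cells, and that of Sparc from −1.69 to −0.83 without the set-apart cells. Unfolded protein response genes had none of 13 past 2-fold and a median of 0.07, against −0.33 in all other cells. Inflammatory and NF-kB genes had 3 of 13 higher and 2 lower, with Socs3, a feedback inhibitor of cytokine signals, at 150.3, 433 and 62.0 CPM (log2 1.47, and 0.78 as a mean over cells). Early response genes had 2 of 21 higher and 2 lower, with Klf2, the shear stress-induced factor, at 4266 CPM in Vehicle and 1865 CPM in AngII (log2 −1.19, and −0.94 without the set-apart cells). Collecting vessel and valve genes had 3 of 14 higher and 1 lower, with a median of −0.04; the higher members were Emilin1 and also Gja4 and Clu, most of whose AngII UMIs came from 1 cell, as given below. Genes shared by all endothelium were lower for 3 of 19 and higher for none, with a median of 0.09. Cd74 was the single MHC class II gene measured, at 28.0, 66.5 and 64.6 CPM, far under the 1568 to 4152 CPM of all other cells. Cell cycle transcripts were scarce: Mki67 gave 1, 0 and 2 UMIs.

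**Figure D4:**
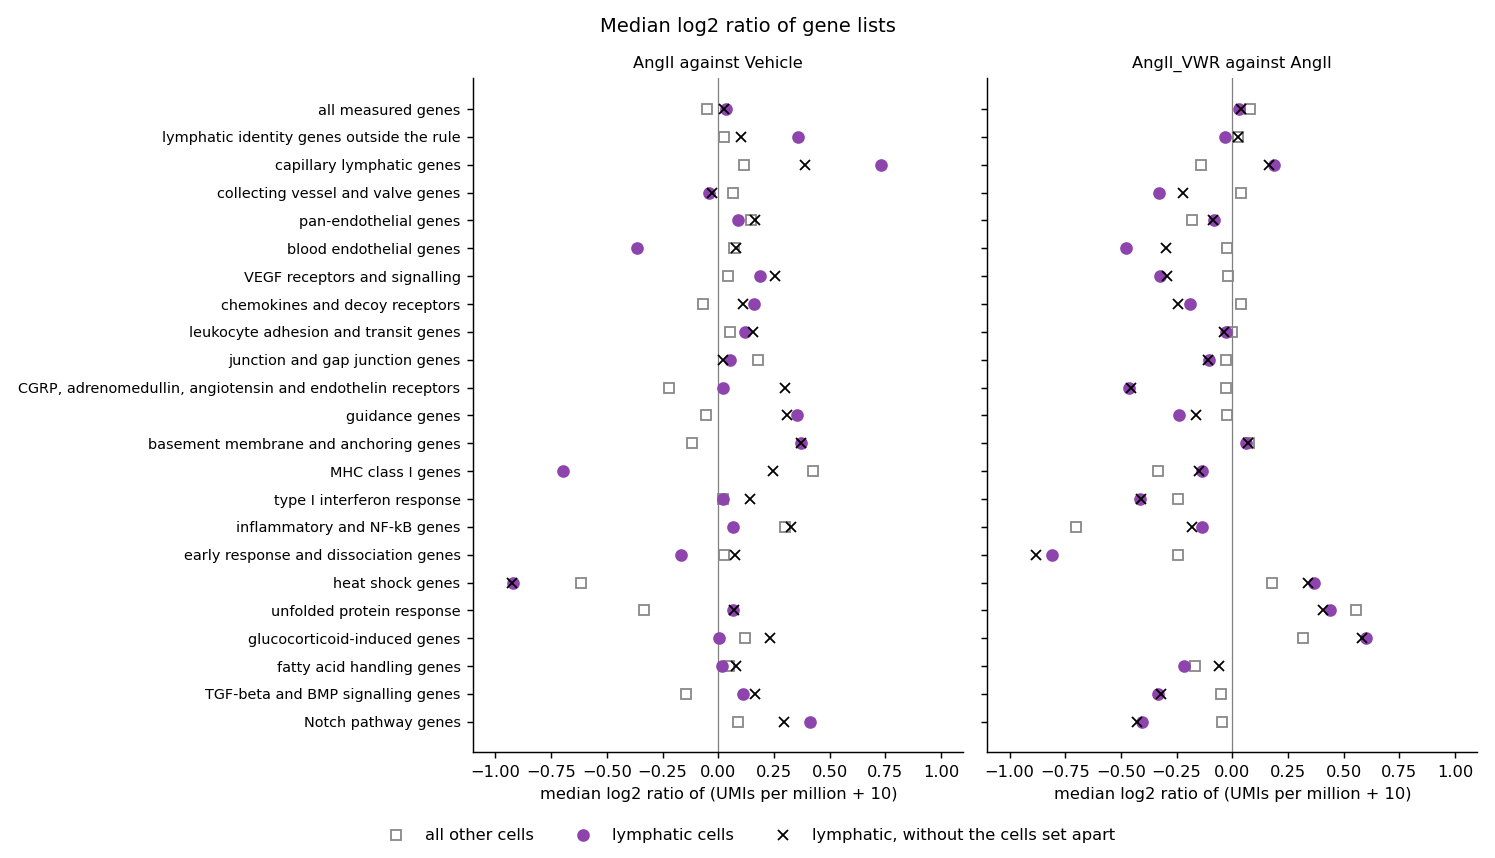
The y axis lists the gene lists and the x axis gives the median log2 ratio of CPM + 10, in lymphatic cells (filled circles), in lymphatic cells without the set-apart cells (crosses) and in all other cells (open squares), for AngII against Vehicle on 1 panel and AngII_VWR against AngII on the other. Heat shock genes lie at −0.92 in AngII against Vehicle with and without the set-apart cells, while MHC class I genes go from −0.70 to 0.24.

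AngII_VWR against AngII asks what differs with running under the hormone. Glucocorticoid-induced genes were higher in AngII_VWR, and early response genes were lower in the summed UMIs but not when each cell had equal weight. Of 4440 measured genes 175 (3.94%) were 2-fold or more higher and 151 (3.40%) were lower by as much, with a median log2 ratio of 0.03. AngII_VWR differed from AngII in depth and in software version as well as in running.

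Glucocorticoid-induced genes, which respond to the adrenal stress hormone, were 2-fold higher for 5 of 12 measured members and lower for none, with a median of 0.60. The median was 0.58 over the same members without the set-apart cells, 0.55 as a mean over cells and 0.64 after thinning. Tsc22d3, which encodes the anti-inflammatory mediator GILZ, stood at 358, 190.4 and 455 CPM, 2.39-fold higher than in AngII (1.86 to 3.08). Zbtb16, a transcription factor, stood at 113, 94.3 and 222 CPM (2.36-fold) and Errfi1, an inhibitor of EGF receptors, at 138, 139 and 344 CPM (2.48-fold). Cdkn1a, a cell cycle inhibitor, was 2.45-fold higher, but its log2 ratio of 1.26 became −0.08 after thinning, and that of Errfi1 went from 1.25 to 0.49. Thinning kept 2000 UMIs from each of 35 AngII and 37 AngII_VWR cells in 1 random draw, so these 2 ratios rest on few UMIs. As means over cells Cdkn1a had 0.43 and Tsc22d3 0.96 in place of 1.21. Fkbp5, a cochaperone of the receptor, stood at 167, 283 and 439 CPM, lowest in Vehicle. Fibroblast markers summed to 876 CPM in the AngII and 2489 CPM in the AngII_VWR lymphatic cells, and Zbtb16 and Errfi1 stood at 420.4 and 590.1 CPM in all other AngII_VWR cells, whose part here was not tested. In all other cells this list had a median of 0.32, and Tsc22d3 a log2 ratio of 1.14, close to the 1.21 of lymphatic cells.

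Polg2 had the highest ratio, at 5.94, 9.24 and 85.3 CPM (9.23-fold, 3.58 to 30.3). All other cells showed it too, with a log2 ratio of 2.17 against 2.31. Mindy1, a deubiquitinase, stood at 36.5, 22.2 and 119 CPM (5.36-fold), with a log2 ratio of 2.00 against 0.41 in all other cells. Hspg2, the basement membrane proteoglycan perlecan, stood at 117, 72.1 and 217 CPM (3.01-fold), and its log2 ratio of 1.47 became 0.59 as a mean over cells. Naa38 was 2.98-fold and Selenot 2.45-fold higher, the log2 ratio of Selenot going from 1.20 to 0.81 as a mean over cells. Maf, a factor of lymphatic identity, stood at 796, 1183 and 2147 CPM, 1.82-fold higher than in AngII (1.64 to 2.02), and was lowest in Vehicle. Its log2 ratio was 0.46 in all other cells and 0.85 here.

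Unfolded protein response genes were above 0 for 12 of 14 measured members with 1 past 2-fold, and had a median of 0.44, against 0.55 in all other cells. Manf stood at 196, 242 and 429 CPM and the chaperone Hspa5 at 675, 708 and 985 CPM. Heat shock genes had a median of 0.36 with 1 of 14 past 2-fold.

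Early response genes, transcription factor genes that many stimuli and tissue digestion switch on within minutes, were at least 2-fold lower in AngII_VWR for 8 of 21 members and higher for none, with a median of −0.81. Fos stood at 6132, 4009 and 1199 CPM (3.34-fold lower, 3.02 to 3.70), Junb at 2005, 3244 and 806 CPM (4.02-fold, 3.57 to 4.55) and Jun at 3167, 1839 and 693 CPM (2.66-fold). AngII_VWR was the lowest library for each. The difference depended on how the cells were weighted: as a mean over cells the median of the list was 0.06, and after thinning −0.07. Fos had a log2 ratio of −1.73 in the summed UMIs and −0.11 as a mean over cells, Junb −2.00 and −0.61, Jun −1.40 and −0.64, and Egr1 turned from −1.23 to 0.08. In all other cells the list had a median of −0.24.

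Other lower genes kept their direction as a mean over cells. Apold1, an early response gene of endothelium, stood at 952, 1739 and 483 CPM (3.60-fold lower, 3.07 to 4.23), with log2 ratios of −1.83 and −1.51 as a mean over cells. Apold1 stood at 4.25, 10.8 and 2.16 CPM in all other cells. In blood endothelial cells it stood at 80.9, 815 and 200 CPM, with a log2 ratio of −1.98, so the difference was not confined to lymphatic cells. Tsc22d1 stood at 374, 369.7 and 93.0 CPM (3.97-fold lower) and Id1 at 132, 244 and 69.8 CPM (3.50-fold lower). H2-T23, a non-classical class I gene, stood at 494, 355 and 111 CPM (3.19-fold lower) and also had a log2 ratio of −0.90 in all other cells. Socs3 was 6.97-fold lower (4.57 to 11.1), with 433 CPM in AngII and 62.0 CPM in AngII_VWR, and its log2 ratio went from −2.62 to −1.73 as a mean over cells. Fxyd6, a regulator of the sodium pump, stood at 1101, 1246 and 488 CPM (2.55-fold lower), and its log2 ratio of −1.33 became −0.84 as a mean over cells. Rgs3 and Kcnk5 were 3.93-fold and 4.21-fold lower, and after thinning Kcnk5 went from −1.70 to −0.96.

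Ccl21a was 2.29-fold lower in AngII_VWR than in AngII (2.20 to 2.38), with a log2 ratio of −1.19 in the summed UMIs and −0.63 as a mean over cells. Its ratio was also under 1 in size after thinning and without each library's deepest cell. In the collecting vessel and valve list 4 of 13 members were at least 2-fold lower and none higher, with a median of −0.33, but for 3 of the 4 a single AngII cell held most of the UMIs. Clu, the chaperone clusterin, stood at 46.7, 116 and 10.3 CPM (11.3-fold lower), Gja4, the gap junction protein connexin 37 of valves, at 45.8, 126 and 23.3 CPM (5.40-fold), and Adm, adrenomedullin, at 93.4, 96.1 and 25.8 CPM (3.72-fold). In AngII 1 cell held 58 of 63 Clu UMIs, 1 cell 38 of 68 Gja4 UMIs and 1 cell 39 of 52 Adm UMIs. Without each library's top cell for the gene, AngII stood at 10.1 CPM of Clu, 60.5 CPM of Gja4 and 26.2 CPM of Adm. The log2 ratio then went from −2.64 to −0.16 for Clu, from −2.03 to −1.31 for Gja4 and from −1.57 to −0.23 for Adm. The ratio of Adm turned to 0.26 as a mean over cells, and that of Gja4 was −0.30 after thinning. Lymphatic identity genes had a median of −0.03 over 20 members, with Fxyd6 the single member past 2-fold, and the VEGF list had none of 11 past 2-fold.

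**Figure D5:**
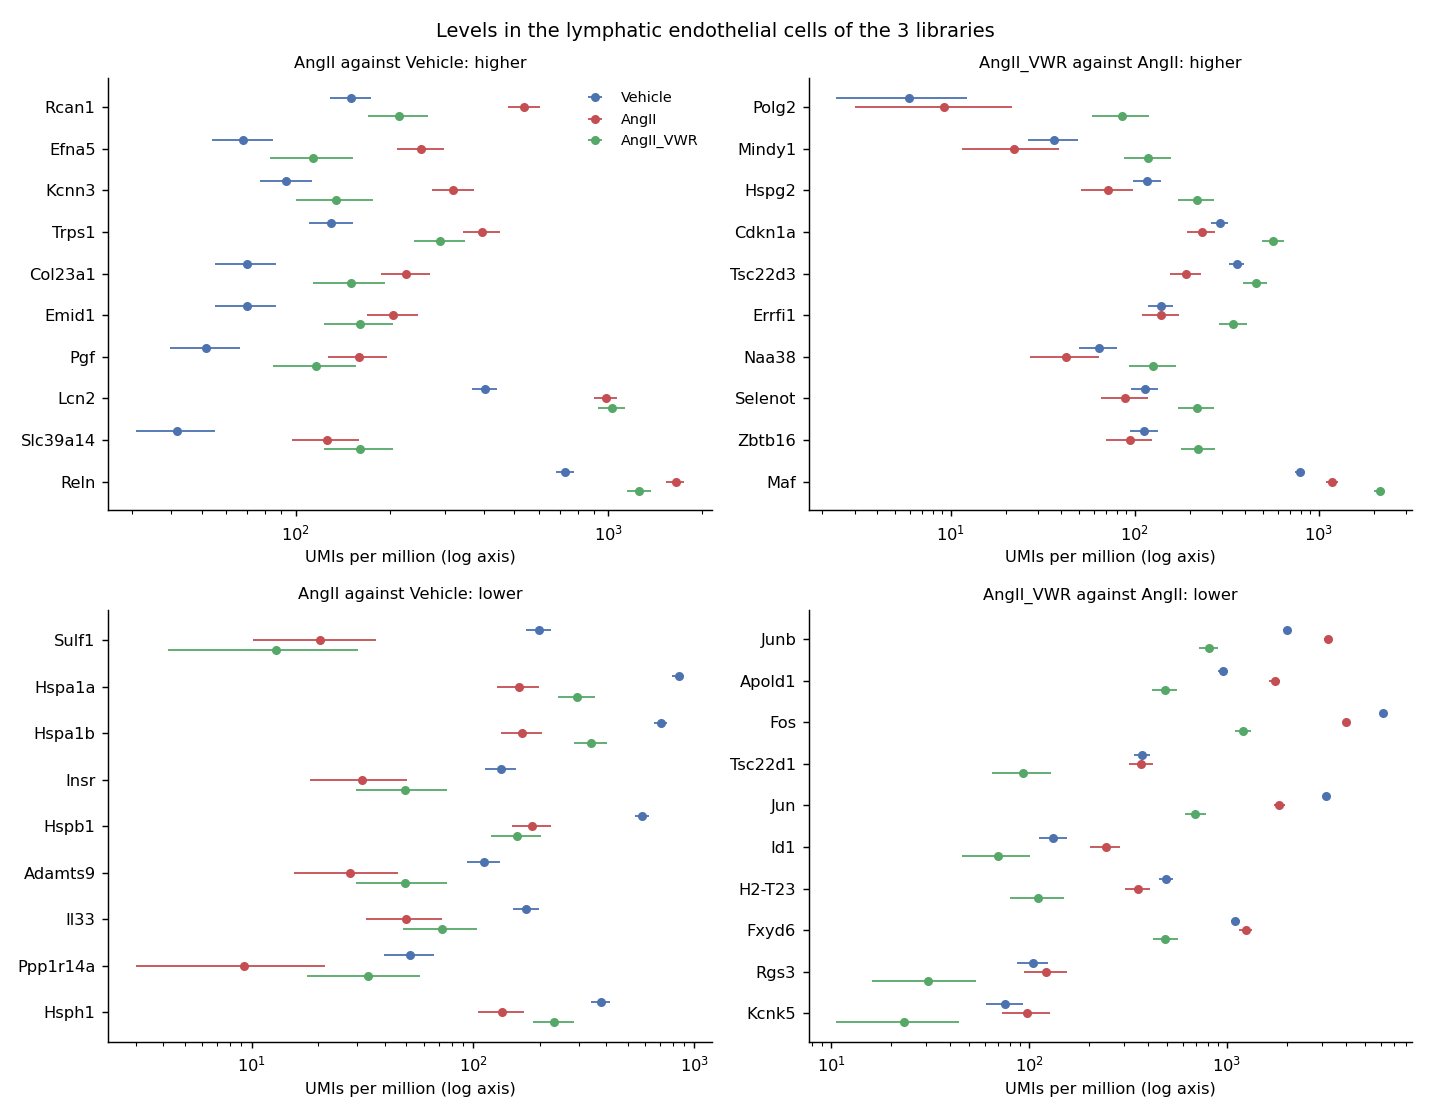
Points are CPM on a log x axis for the genes named by rule and reported, in the lymphatic cells of the 3 libraries, with exact Poisson intervals as bars that cover counting error alone, and 1 panel for each comparison and direction. Rcan1 stands at 539.7 CPM in AngII and 214 CPM in AngII_VWR, and Tsc22d3 at 190.4 and 455 CPM.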

How the data were processed

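The unit of the deposited files is raw UMI counts per gene and barcode, made by the authors with Cell Ranger 7.0.1 (Vehicle, AngII) and 7.1.0 (AngII_VWR), per the file headers, on the mouse build mm10, per the submitters' processing notes. Rows with the same symbol were summed (32285 rows, 32245 symbols). The cells, gene lists and named-gene rule were chosen with earlier results of these data known, and the cut on Plvap, Fabp4, Ackr4 and Vwf after the values had been seen.

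UMI counts were added up within each class and library. Lymphatic and blood endothelial sums were compared with edgeR 4.0.16 (TMM, filterByExpr, R 4.3.3), with DESeq2 1.42.0 as an alternative. The SE of a log2 fold change was derived from that fold change and the F statistic of the edgeR test, and is not a spread measured between libraries. Conditions were compared as CPM with exact Poisson and exact conditional ratio intervals of 95%, for counting error alone. The calculations were tested on simulated data.

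Named genes in a condition comparison had at least 30 UMIs in at least 10 cells of the higher library, no cell with over 25% of them, and at least 0.5 times the CPM of all other cells there. The 10 highest and 10 lowest by the bound of the ratio interval nearest to 1 were taken. In the class comparison these were the 12 highest and 8 lowest genes with a mean of at least 100 CPM, and each list gave its most abundant or most different members. Other list members were singled out after their values had been seen. No doublets were removed in the main values. An alternative removed the highest Scrublet scores (scanpy 1.11.5) at 0.8% per 1000 cells, since its own threshold called 249, 135 and 0. Intervals, thinning and figures used scipy 1.17.1, matplotlib 3.10.9, pandas 2.3.3 and numpy 2.4.6 under Python 3.11.15. Gene positions are from GENCODE vM21. Some genes that the naming rules chose are not reported here.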

Additional observations from a re-analysis of the deposited data

How the results depend on the processing

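Counted among endothelial cells, the lymphatic share was 72.8, 27.7 and 55.4% in Vehicle, AngII and AngII_VWR, the ratio of AngII over Vehicle was 0.380, and that of AngII_VWR over AngII turned from 0.593 to 2.00. Counted outside the fibroblast limit, the shares were 0.944, 1.14 and 0.739%. The class comparison gave 781 genes higher and 965 lower with no filter beyond 1 UMI (16795 tested), 225 and 199 with every cell thinned to 2000 UMIs (1581 tested), and 343 and 332 with doublets removed. Leaving out 1 library gave 267 to 578 higher and 331 to 691 lower, lowest without AngII_VWR. Without the library block (no replicate block) it gave 436 and 496, of which 407 and 467 were shared with the blocked fit. Of 53 named genes 478 of 513 values under alternatives kept their call, 35 lost it and none turned.

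In AngII against Vehicle, genes at least 2-fold higher and lower numbered 519 and 863 with 10 UMIs as the single filter, 267 and 218 as means over cells, and 415 and 363 after thinning. In AngII_VWR against AngII they numbered 639 and 588, 375 and 476, and 342 and 394. Of 48 genes followed in the first and 47 in the second comparison, 35 and 26 had a log2 ratio of at least 1 in size. As means over cells 13 and 11 of these came under 1, after thinning 13 and 10, with 50 CPM added in place of 10 CPM 9 and 5, and without the set-apart cells 12 and none. Those that turned in sign were H2-K1 (log2 0.43 without the set-apart cells) and Clu (−1.21 without each library's top cell for the gene) in the first, and Adm (0.26) and Egr1 (0.079) as means over cells and Cdkn1a (−0.078) after thinning in the second; the cause was not tested. Smaller ratios changed sign too, among them Lyve1 (0.51 to −0.07 after thinning) in the first and Prox1 (0.04 to −0.31) in the second. The settings without set-apart or top cells were chosen after seeing the data. No paired analysis was possible because each condition has 1 library. With 36 to 59 cells a library, genes under about 50 CPM were not compared, and the spread between mice is unknown.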
